A study of Caenorhabditis elegans with 3 samples.

Results

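Regions of highest MML-1 signal that lay at protein-coding promoters were examined in Caenorhabditis elegans larvae, measured by chromatin immunoprecipitation and sequencing (ChIP-seq). The members were chosen by a rule: the regions of the authors' pooled list were sorted by the authors' signal, the first 1500 of 30000 were taken, and those whose summit lay between 1000 bp upstream and 200 bp downstream of the start of any protein-coding transcript were kept. The rule kept 602 of the 1500, which are called the top promoter regions. They lay in the windows of 645 genes. The other 898 regions of the first 1500, and the 8207 promoter regions ranked below 1500, served as comparison sets. Signal and position relative to a start chose the members, so both are given as descriptions.

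Whole larvae of mixed sex at the L3 stage were profiled in 3 biological replicates, with no second condition. All 3 came from strain OP198, genotype unc-119(ed3) III with the transgene wgIs198, which expresses MML-1 with a C-terminal GFP-FLAG tag. For replicates 1 and 2 the labels give a fragment size range and the stock centre CGC as source, and for replicate 3 they give sonication and the Snyder laboratory as source. All tagged protein came from this 1 transgenic strain, and RNA levels were not measured. Of the 602 top promoter regions, 92 were in the authors' list of 195 reproducible peaks and 510 were not. The 92 were exactly the members at pooled ranks 1 to 195. Being reproducible is thus the same split as a cut on the signal that ranked them, and is not separate support. The 510 come from a list that the authors label as peaks and background, so they are not a set of binding sites.

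MML-1 belongs to the Mondo family of basic helix-loop-helix transcription factors and is related to the mammalian glucose sensors MondoA and ChREBP. Its partner is MXL-2, a relative of Max, and such pairs bind the E-box CACGTG and its relatives. In mammals, Mondo proteins act at carbohydrate response elements, which are pairs of E-box-like hexamers separated by a short spacer. In the worm, MML-1 is known for roles in lifespan, autophagy and metabolism.

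The sequences around the highest top promoter regions show what lay at their summits. Each is 50 bp on either side of the summit in the WBcel235 (ce11) assembly, 5′ to 3′ on the strand of its gene, and capitals mark the E-box CACGTG, its relative CACATG on either strand and the 9-base sequence CTGCGTCTC in either orientation. The first 10 are the highest that held CACGTG within 100 bp of the summit and could be printed here.
mdl-1 (chrX:6742169-6742269, + strand): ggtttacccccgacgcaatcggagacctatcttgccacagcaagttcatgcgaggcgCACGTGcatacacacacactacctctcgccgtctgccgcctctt
tre-2 (chrIV:6879065-6879165, - strand): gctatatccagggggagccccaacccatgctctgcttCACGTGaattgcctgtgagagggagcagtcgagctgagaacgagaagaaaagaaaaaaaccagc
ZK829.7 (chrIV:11962152-11962252, - strand): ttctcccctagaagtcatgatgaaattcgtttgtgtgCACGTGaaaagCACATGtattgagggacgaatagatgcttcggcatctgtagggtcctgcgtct
F56H9.2 (chrV:12637348-12637448, + strand): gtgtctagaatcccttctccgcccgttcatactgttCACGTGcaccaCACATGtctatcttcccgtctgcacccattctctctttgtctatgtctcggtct
mans-3 (chrX:5165123-5165223, + strand): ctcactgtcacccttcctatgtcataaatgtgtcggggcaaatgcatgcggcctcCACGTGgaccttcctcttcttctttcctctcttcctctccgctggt
R07E3.4 (chrX:10332470-10332570, - strand): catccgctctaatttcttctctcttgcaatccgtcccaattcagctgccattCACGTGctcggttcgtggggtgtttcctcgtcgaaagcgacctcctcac
H18N23.2 (chrX:17640954-17641054, - strand): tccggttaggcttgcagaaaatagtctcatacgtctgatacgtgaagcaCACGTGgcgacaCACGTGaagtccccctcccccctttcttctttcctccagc
E01G4.3 (chrII:13462105-13462205, - strand): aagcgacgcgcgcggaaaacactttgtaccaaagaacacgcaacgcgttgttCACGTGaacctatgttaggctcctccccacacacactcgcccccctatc
D2023.1 (chrV:11799386-11799486, + strand): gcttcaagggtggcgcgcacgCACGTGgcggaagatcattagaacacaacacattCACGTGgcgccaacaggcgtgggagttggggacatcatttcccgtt
nhx-4 (chrX:6916304-6916404, + strand): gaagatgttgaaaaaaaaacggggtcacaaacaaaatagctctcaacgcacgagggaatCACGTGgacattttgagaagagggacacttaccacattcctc
The next 5 are the highest that lacked CACGTG and could be printed here.
T07E3.4 (chrIII:6897747-6897847, + strand): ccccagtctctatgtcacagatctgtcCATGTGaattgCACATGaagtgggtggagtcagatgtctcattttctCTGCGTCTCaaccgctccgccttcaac
F22F7.7 (chrV:2133695-2133795, - strand): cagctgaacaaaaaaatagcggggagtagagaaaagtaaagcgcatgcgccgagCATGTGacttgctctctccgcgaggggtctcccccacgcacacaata
lgg-2 (chrIV:10935449-10935549, - strand): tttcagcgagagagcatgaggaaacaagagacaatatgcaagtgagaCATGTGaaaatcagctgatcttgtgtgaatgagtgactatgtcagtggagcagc
epn-1 (chrX:14818968-14819068, - strand): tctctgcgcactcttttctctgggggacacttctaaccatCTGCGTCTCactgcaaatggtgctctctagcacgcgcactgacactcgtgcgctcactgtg
F44E5.4 (chrII:11759396-11759496, - strand): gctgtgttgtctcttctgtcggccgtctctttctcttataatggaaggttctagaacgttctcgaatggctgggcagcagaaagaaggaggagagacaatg
Of the 5 without CACGTG, T07E3.4, F22F7.7 and lgg-2 had CACATG on one strand or the other. The summit of epn-1 had the 9-base sequence instead, and that of F44E5.4 had none of the marked sequences.

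The 25 highest top promoter regions ranked between 2 and 52 in the pooled list, had 24 nearest genes with pfd-1 as a further gene in whose window 1 of them lay, and were all upstream of their nearest start. CACGTG was present in 19 of the 25. The highest belonged to mdl-1 (WBGene00003163), 132 bp upstream of its start, and this gene's Mad-like product pairs with MXL-1, another relative of Max. Its pooled signal was 620.8, and it ranked 2, 3 and 1 in replicates 1, 2 and 3. The next was 238 bp upstream of an internal start of the trehalase gene tre-2 (WBGene00006608), with a signal of 516.5 and ranks of 3, 2 and 9. ZK829.7 followed with a signal of 386.7 and ranks of 4, 6 and 6. All 3 regions stayed among the first 10 of every replicate. Among the 25, 22 ranked in the first 100 regions of all 3 replicates. The exceptions were lgg-2, ranked 36, 223 and 30, ZK1290.5, ranked 97, 130 and 28, and sir-2.2, ranked 234, 69 and 25.

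Several of the 25 belonged to genes of known function. Metabolic enzymes and transporters were represented by tre-2, the mannosidase gene mans-3, the glutamine synthetase gene gln-3 and the sodium/proton exchanger gene nhx-4. Autophagy was represented by epg-7, a scaffold gene whose summit lay 140 bp upstream and 0.5 bp from the centre of a CACGTG, and by lgg-2, an LC3-like gene. Transport and traffic genes were imb-3, an importin beta family gene, and unc-16, which encodes a JNK scaffold protein. The prefoldin gene pfd-1 and the mitochondrial sirtuin gene sir-2.2 were also among them. Of the 25, 8 lay on chromosome X. The gene with unknown role R07E3.4 had 2 of the 25 regions, at ranks 17 and 35, which held 1 and 2 copies of CACGTG. They belong to different starts of the gene: the region at rank 17 lay in an intron, 620 bp upstream of an internal start, and that at rank 35 was intergenic, 197 bp upstream of another start.

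The hexamer CACGTG lay within 100 bp of the summit, on either strand, in 96 of the 602 top promoter regions, or 15.9% (95% exact Clopper-Pearson interval 13.1 to 19.1%). The share was 18% (162 regions) in the 898 other top regions, a difference that did not pass the test (two-sided Fisher's exact test, odds ratio 0.862, adjusted p = 0.346). It was 4.26% (3.84 to 4.72%) in the 8207 lower-ranked promoter regions, so the top promoter regions held CACGTG more often (odds ratio 4.26, Fisher's exact test, adjusted p = 6.16e-25). The odds ratio was 20.8, 19.5 and 15.9 with replicates 1, 2 and 3 left out in turn. There the pooled ranks stayed, and only top promoter regions high in both other replicates (77 to 112) were kept. The lower-ranked regions were not filtered, so these values describe the members that ranked high and do not test dependence on a replicate. Over all 8809 promoter regions the share was 5.06%. The share fell with rank among the promoter regions. It was 53.3% (42.6 to 63.7%) of 92 at ranks 1 to 195, 20.3% of 133 at ranks 196 to 500, 7.04% of 199 at ranks 501 to 1000 and 3.37% (1.25 to 7.19%) of 178 at ranks 1001 to 1500. At ranks 1501 to 5000 and 5001 to 30000 it was 5.30% and 4.11%. The 178 lowest of the top promoter regions therefore held CACGTG about as often as the regions below the limit, and their interval contains both shares. These p-values treat regions as units and do not cover the spread between animals, and the same holds for each test over regions given here.

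**Figure D1:**
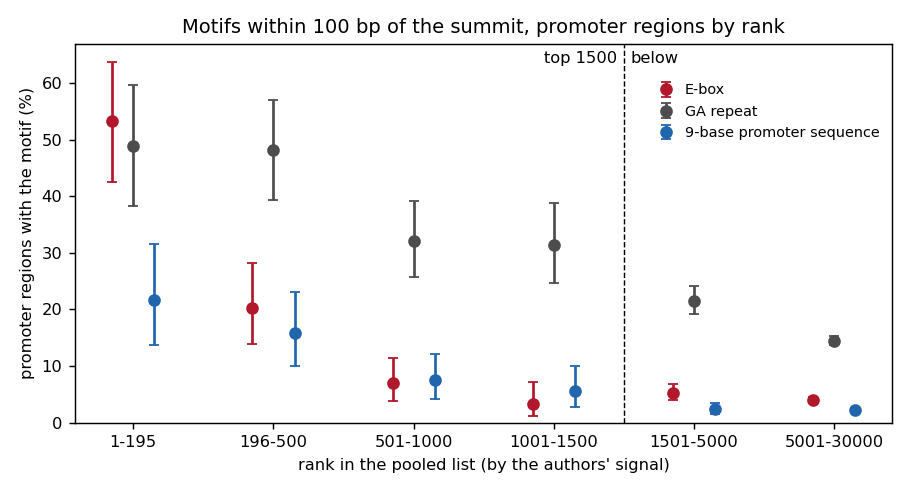
Share of promoter regions, in percent, that held the E-box CACGTG, the GA repeat GAGAGA or the 9-base sequence within 100 bp of the summit, by rank in the pooled list, with exact 95% intervals. The E-box falls to 3.37% by ranks 1001 to 1500, while the GA repeat is still at 31.5% there and declines across the dashed line that marks rank 1500.

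The related E-box CACATG was found in 96 of the 602 top promoter regions as well, or 15.9%, against 7.19% of the lower-ranked ones (odds ratio 2.45, Fisher's exact test, adjusted p = 7.52e-12). In the other top regions it was in 15.6%, a difference that did not pass (odds ratio 1.03, Fisher's exact test, adjusted p = 0.885). The top promoter regions with neither CACGTG nor CACATG numbered 431, or 71.6%. Of the 92 reproducible ones, 67 held one or the other and 25 held neither. CAGCTG, the E-box of other helix-loop-helix proteins, was in 6.48% of top promoter regions and 4.28% of lower-ranked ones (odds ratio 1.55, Fisher's exact test, adjusted p = 0.0176). Against the other top regions, with 4.90%, it did not pass (odds ratio 1.34, Fisher's exact test, adjusted p = 0.288).

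Sequences outside the E-box family also differed. The GA repeat GAGAGA was in 229 of the 602 top promoter regions, or 38.0%, against 15.4% of lower-ranked promoter regions (odds ratio 3.36, Fisher's exact test, adjusted p = 4.94e-37). CTGCGTCTC was in 66 top promoter regions, or 11%, against 2.22% of lower-ranked ones (odds ratio 5.43, adjusted p = 1.4e-22 by Fisher's exact test). Both were also more frequent than in the 898 other top regions, where GAGAGA reached 31.5% and CTGCGTCTC 6.90% (odds ratios 1.33 and 1.66, Fisher's exact test, adjusted p = 0.037 for each). CTGCGTCTC was searched because it is common in worm promoters, and the 898 regions lie outside the promoter windows. Its difference from them is therefore tied to the position rule that chose the members. The GAGAGA difference compares the same sets, so it cannot be told apart from that rule either. A pair of sequences was rarer in the top promoter regions than in the lower-ranked ones, TATAAA, the core of the TATA box, and TGATAA, which GATA factors bind. TATAAA was in 13.3% of top promoter regions and 20.4% of lower-ranked ones (odds ratio 0.596, Fisher's exact test, adjusted p = 1.54e-05). TGATAA was in 14.5% of top promoter regions and 19.6% of lower-ranked ones (odds ratio 0.693, Fisher's exact test, adjusted p = 0.00216). In the other top regions TATAAA was in 16.4% and TGATAA in 17.6%, and neither difference passed (odds ratios 0.783 and 0.791, Fisher's exact test, adjusted p = 0.205 for each). The share of all 8809 promoter regions was 17% for GAGAGA, 2.82% for CTGCGTCTC, 19.96% for TATAAA, 19.2% for TGATAA, 7.79% for CACATG and 4.43% for CAGCTG. Of the 7 sequences, none is part of another, and a match describes the letters and is not a measured site.

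Base composition moved with these shares. Median GC content within 100 bp of the summit was 41.8% in the top promoter regions and 36.3% in the lower-ranked ones. Among regions of 40 to 45% GC, a comparison chosen after the data were seen, CACGTG was in 28 of 146 top promoter regions, 19.2%, and in 6.03% of lower-ranked ones (Fisher's exact test, adjusted p = 1.26e-06). GAGAGA was in 40.4% of such top promoter regions and 20.6% of lower-ranked ones (Fisher's exact test, adjusted p = 1.26e-06), and CACATG passed too (Fisher's exact test, adjusted p = 2.72e-05). CTGCGTCTC was in 7.53% of such top promoter regions and 3.87% of lower-ranked ones, and its call was lost (Fisher's exact test, adjusted p = 0.084). Its odds ratio there was 2.03, against 5.43 over all GC contents. The calls for CAGCTG (odds ratio 1.26, Fisher's exact test, adjusted p = 0.552), for TATAAA (odds ratio 0.661, adjusted p = 0.312) and for TGATAA (odds ratio 0.905, adjusted p = 0.811) were lost too. The odds ratio of TATAAA differed little from the 0.596 over all GC contents, and with 146 top promoter regions in this range a lost call does not show that the shares are equal.

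The sequences shared regions unevenly. GAGAGA was in 47.9% of the 96 top promoter regions with CACGTG and in 36.2% of the 506 without it. CTGCGTCTC was in 19.2% of the 229 with GAGAGA and in 5.90% of the 373 without. These overlaps are descriptions of the members.

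Sites lay nearer the summits in the top promoter regions than in the lower-ranked ones, and most so in the reproducible members. In the 96 top promoter regions with CACGTG, the nearest copy was centred a median of 18 bp from the summit, against 47.5 bp in the 350 lower-ranked ones. It lay within 25 bp in 53 of 96, or 55.2%, against 26.9% in lower-ranked promoter regions with a site, and an even spread over the searched window would give 25.4%. In the 49 reproducible regions with a site the median was 10.5 bp, and 73.5% had a copy within 25 bp. In the 47 members with a site outside that list the median was 31.5 bp, and 36.2% had a copy within 25 bp. A single copy was present in 88 regions and 2 copies in 8. Of the copies, 95 lay upstream of the nearest start, and the median position over all of them was 240.5 bp upstream. The copies were flanked as TCACGTGA in 24, or 23.1% (15.4 to 32.4%), against 8.20% (5.60 to 11.5%) of 366 copies in lower-ranked promoter regions (odds ratio 3.36, Fisher's exact test, p = 8.97e-05). The other top regions had this flank in 41 of 188 copies, or 21.8%, a share close to that of the top promoter regions, and that difference was not tested. With 1 region kept per 10 kb cluster the odds ratio was 1.66 and the call was lost (Fisher's exact test, p = 0.298). The share in the top promoter regions stayed at 23.2% there, and the lower-ranked regions were thinned too, so the comparison set changed. Keeping only members high in replicates 2 and 3, with replicate 1 left out, gave 5.20. The lower-ranked regions were not filtered there, so this value describes those members and does not test dependence on a replicate.

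Pairs of E-boxes 5 bases apart stood out in the printed sequences. Of the 602 top promoter regions, 10 (1.66%) had CACGTG or CACATG followed by another after exactly 5 bases, against 3 of the 8207 lower-ranked ones (0.0366%). The share was 2.00%, or 18 regions, in the other top regions. Any gap up to 20 bases was found in 24 top promoter regions (3.99%) and 22 lower-ranked ones (0.268%), with 36 (4.01%) in the other top regions. The next most frequent gap in the top promoter regions was 6 bases, in 4 of them. This comparison was made after the sequences were seen, so no test is given. Those that could be printed here are shown on the strand of the gene, with both hexamers in capitals.
ZK829.7 (chrIV:11962199-11962215, - strand): CACGTGaaaagCACATG
T07E3.4 (chrIII:6897774-6897790, + strand): CATGTGaattgCACATG
F56H9.2 (chrV:12637384-12637400, + strand): CACGTGcaccaCACATG
C42D4.18 (chrIV:7166778-7166794, + strand): CATGTGcttagCATGTG
sma-9 (chrX:10772945-10772961, + strand): CATGTGaacgtCACATG
mca-1 (chrIV:9635903-9635919, - strand): CACATGgtattCACATG
mbk-2 (chrIV:13026770-13026786, + strand): CACATGaaaagCACATG
In T07E3.4, C42D4.18, sma-9, mca-1 and mbk-2 both hexamers were CACATG in either orientation, so these pairs held no CACGTG. The remaining 3 pairs were at F26A3.4, the cyclin-dependent kinase gene cdk-7 and D2030.2. Of the 10, 7 were reproducible, at pooled ranks 5 to 130. The region at sma-9, a Schnurri-like gene of the BMP pathway, ranked 16391, 1678 and 204 in replicates 1, 2 and 3, and that at the calcium pump gene mca-1 ranked 1258, 4146 and 11402. The region at the DYRK-family kinase gene mbk-2 ranked 6824, 8896 and 2315. These 3 were outside the reproducible list and scattered between the replicates, whereas ZK829.7, T07E3.4 and F56H9.2 were among the first 14 regions of each.

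**Figure D2:**
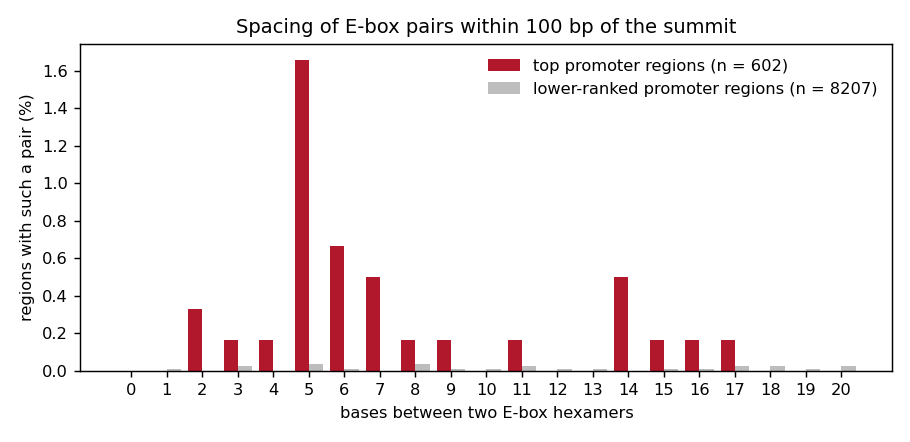
Share of regions, in percent, with a pair of E-box hexamers (CACGTG or CACATG) within 100 bp of the summit, by the number of bases between them, for top promoter regions (red, n = 602) and lower-ranked promoter regions (grey, n = 8207). The bar at 5 bases is the tallest at 1.66%, and the grey bars stay near 0.

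Most summits were upstream, in a window that reaches 1000 bp upstream and only 200 bp downstream and so favours this. Of the 602, 523 (86.9%) lay upstream of or at the nearest start and 79 (13.1%) downstream, against 80.1% upstream in the lower-ranked promoter regions. The median distance was 282 bp (interquartile range 120 to 579 bp) in top promoter regions and 296 bp (114 to 627 bp) in lower-ranked ones, a difference of -14 bp. The difference changed sign with a narrower window (7 bp), at 40 to 45% GC (34.5 bp) and with replicate 3 left out (15 bp). The commonest position was 100 to 200 bp upstream, with 89 top promoter regions (14.8%) against 9.80% of lower-ranked ones. CACGTG was present in 90 of the 523 upstream regions (17.2%) and in 6 of the 79 downstream ones (7.59%).

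**Figure D3:**
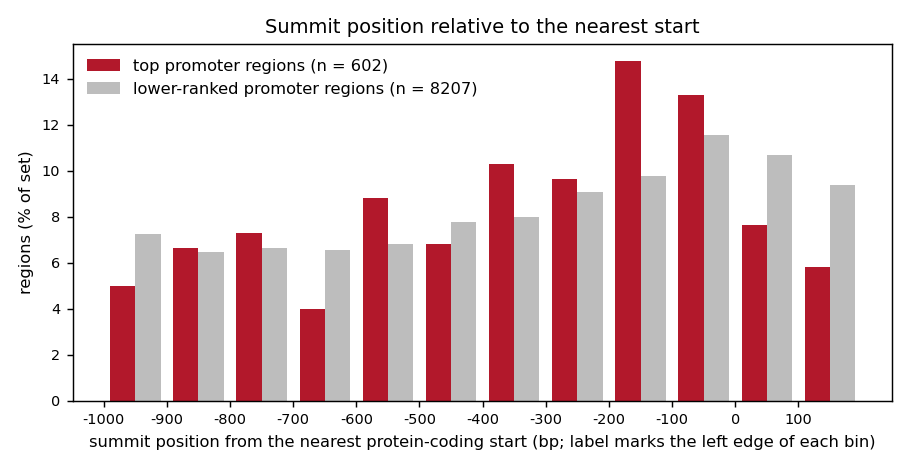
Position of the summit relative to the nearest protein-coding start in bins of 100 bp, as percent of 602 top promoter regions (red) and 8207 lower-ranked promoter regions (grey). The red bars peak at 14.8% between 200 and 100 bp upstream and sit below the grey bars downstream of the start.

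By annotation, 360 of the 602 summits (59.8%) were intergenic, 130 (21.6%) were in introns, 60 (9.97%) in coding exons, 43 (7.14%) in 5′ UTRs and 9 (1.495%) in 3′ UTRs. In the lower-ranked promoter regions 46.9% were intergenic and 22.3% in coding exons. A summit counted as intronic or exonic can lie in a longer transcript of the same gene, downstream of the start or in a neighbouring gene. CACGTG was in 29 of the 130 intronic regions (22.3%), 61 of the 360 intergenic ones (16.9%) and 1 of the 60 in coding exons (1.67%, interval 0.0422 to 8.94%). Within 200 bp of an annotated snoRNA, tRNA or snRNA gene lay 24 top promoter regions (3.99%), against 1.097% of lower-ranked ones. Those 24 comprised 11 near snoRNA, 10 near tRNA and 3 near snRNA genes, and 0 of the 24 held CACGTG, where the exact interval reaches 14.2%.

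By chromosome, 135 of the 602 (22.4%) were on X, against 18.1% of lower-ranked promoter regions (odds ratio 1.31, Fisher's exact test, adjusted p = 0.0311). Chromosome V held 105 (17.4%) against 22.5% of lower-ranked promoter regions (odds ratio 0.727, Fisher's exact test, adjusted p = 0.0223). None of the remaining 4 chromosomes passed, with Fisher's exact test giving adjusted p-values between 0.0853 and 0.73. CACGTG was in 27 of the 135 regions on X (interval 13.6 to 27.7%).

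Each of 514 top promoter regions (85.4%) lay in the window of a single gene, 11 in the windows of genes on the same strand, and 77 in windows of genes on both strands. All 77 of these divergent regions lay between or around head-to-head starts, which were a median of 678 bp apart (12 to 1695 bp), and 64 lay upstream of both starts. The window of the rule favours both. They touched 148 genes. The divergent share was 12.8% (10.2 to 15.7%) in the top promoter regions and 9.75% (9.11 to 10.4%) in the lower-ranked ones (odds ratio 1.36, Fisher's exact test, p = 0.0197). This call was lost in the reproducible list (odds ratio 1.104), at 40 to 45% GC (1.58) and with replicate 2 or 3 left out (1.43 and 1.53), and its direction turned with replicate 1 left out (0.926). Only 146 top promoter regions remained at that GC content, and 112 and 99 without replicates 2 and 3. The odds ratios of these 3 settings were above 1.36, so their lost calls do not show that the shares are equal. CACGTG was in 9 of the 77 (11.7%) and in 86 of the 514 single-gene regions (16.7%).

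The highest divergent regions were at the pair F01G4.6 and pfd-1, with 2 regions at ranks 43 and 70. The region at rank 43 lay in an intron, 6 bp upstream of an internal F01G4.6 start and 906 bp upstream of pfd-1. The region at rank 70 was intergenic, 278 bp upstream of another F01G4.6 start and 331 bp upstream of pfd-1. Their ranks in replicates 1, 2 and 3 were 54, 54 and 37 at rank 43 and 76, 62 and 82 at rank 70. F44E5.4 and F44E5.5, a pair of Hsp70 genes, followed at rank 67, with replicate ranks of 45, 44 and 365. At rank 83 the region lay 208 bp upstream of rpn-3, a proteasome regulatory subunit gene, and 236 bp upstream of hsp-110, an Hsp110 chaperone gene. No match was found in replicate 3, and the ranks in replicates 1 and 2 were 50 and 465. The others of the highest 8 were nhl-2 with tag-340 (rank 86), K01G5.10 with tasp-1 (94), mif-4 with ipla-6 (131) and R04E5.9 with cnnm-2 (166). Of these 8, CACGTG was present at mif-4 with ipla-6 and at R04E5.9 with cnnm-2.

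The 8 highest top promoter regions without CACGTG were T07E3.4 (rank 8), F22F7.7 (13), unc-16 (27), F26A3.4 (29), lgg-2 (38), F01G4.6 with pfd-1 (43), the epsin gene epn-1 (53) and F44E5.4 with F44E5.5 (67). CACATG was in all of them except epn-1 and F44E5.4. The printed F44E5.4 window has ttctagaacgttc near its centre, which fits the heat shock element as 3 alternating inverted copies of GAA with 2 bases between neighbours. Searched on both strands within 100 bp of the summit after this was seen, that pattern was in 9 of the 602 top promoter regions (1.495%), 6 of them reproducible, and in 73 lower-ranked promoter regions (0.889%). Over all 8809 promoter regions the share was 0.931%. The 9 included rpn-3 with hsp-110, and no test of this count is given.

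Some genes had several members. The top promoter regions fell on lgg-2 at ranks 38, 141 and 949, on pfd-1 at ranks 43, 70 and 1099, and on the reticulon gene ret-1 at ranks 239, 754 and 837. Of the others, 42 genes had 2 and 600 had 1. Neighbouring members are not independent: the 602 fell into 522 clusters at a spacing of 10 kb.

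Recovery in the replicate lists is a description, since the replicates made the pooled list. A region was counted as recovered where a replicate summit lay within 200 bp. Its rank in the replicate is that of the nearest such summit, which need not be the highest within 200 bp. Of the 602, 262 (43.5%) were recovered in all 3 lists, 293 (48.7%) in 2 and 47 (7.81%) in 1. The list of replicate 1 held 534 of them (88.7%), that of replicate 2 held 464 (77.1%) and that of replicate 3 held 421 (69.9%). Each list holds far more regions than the rank limit, so recovery among the first 1500 of a replicate was also counted. By that measure, 62 (10.3%) were in all 3, 102 (16.9%) in 2, 273 (45.3%) in 1 and 165 (27.4%) in none. Matched regions had median ranks of 1588.5, 2684.5 and 1221 in replicates 1, 2 and 3. The median distance between the pooled and the replicate summit was 21, 27 and 38 bp in replicates 1, 2 and 3.

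The reproducible members, which are those at pooled ranks 1 to 195, and the remaining members differed in this. Of the 92 reproducible ones, 81 were in all 3 lists and 57 were in the first 1500 of all 3, with median ranks of 111, 106 and 120. Of the 510 outside that list, 181 were in all 3 lists and 5 were in the first 1500 of all 3. No region was missing for the reproducible members in replicate 1, while 5 had none in replicate 2 and 6 in replicate 3. Those without a match in replicate 2 included atg-9, an autophagy membrane protein gene, which ranked 749 and 50 in replicates 1 and 3. In the other top regions, 40.1% were in all 3 lists, and in the lower-ranked promoter regions 3.18% were.

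CACGTG followed the number of replicates, which is a description, since the replicates made the pooled list. It was present in 34 of the 62 top promoter regions in the first 1500 of all 3 replicates (54.8%, interval 41.7 to 67.5%), in 28 of 102 in 2 (27.5%), in 28 of 273 in 1 (10.3%) and in 6 of 165 in none (3.64%, interval 1.35 to 7.75%). Of the 62, 57 were reproducible members, and 53.3% of all 92 reproducible members held CACGTG. Whether CACGTG goes with the number of replicates apart from its fall with pooled rank was not tested. Single-replicate members were spread over the libraries. Of them, 112 were in the first 1500 of replicate 1 only, 70 of replicate 2 only and 91 of replicate 3 only.

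**Figure D4:**
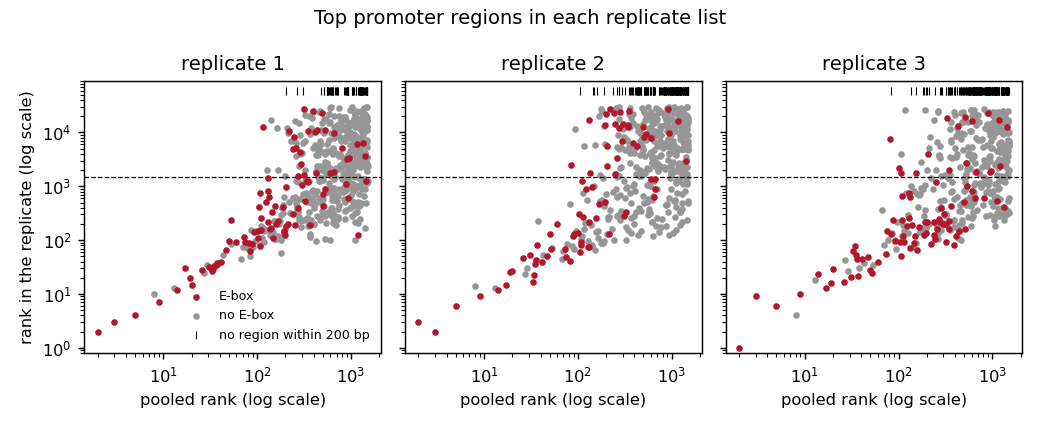
Rank of each top promoter region in the pooled list (horizontal, log scale) and in each of the 3 replicate lists (vertical, log scale), in red where CACGTG was within 100 bp of the summit, with ticks at the top for regions without a match within 200 bp. The dashed line is rank 1500, and the points fan out from the diagonal beyond about the first 100 ranks.

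The genes were set beside 24 lists, which are selections and do not hold every gene of a class. The autophagy list left out epg-7, the heat shock list F44E5.4 and F44E5.5, and the basic helix-loop-helix list mdl-1, mxl-3 and mml-1. Each count is thus of listed genes only. Of the 7956 protein-coding genes with any pooled promoter region, 645, or 8.11%, had a top promoter region, and 96, or 1.21%, had a reproducible one. In the Myc, Mondo and Max network 3 of 4 genes had a top promoter region, all of them reproducible. These were mdl-1, mxl-3 (rank 157) and mml-1 itself (rank 175), whose gene the transgene also carries. The region of mxl-3, a Max-like gene, ranked 106, 144 and 712 in the replicates, and that of mml-1 ranked 223, 88 and 2825. Of the trehalose and glycogen genes 3 of 8 had one, again all reproducible, at tre-2, at tps-2, a trehalose phosphate synthase gene (rank 178), and at the trehalase gene tre-1 (rank 189). The tps-2 region ranked 288, 27195 and 169, and that of tre-1, shared with dad-1, ranked 449, 13234 and 361. The nearest summit in replicate 2 thus ranked far lower at both. Among autophagy and lysosome genes 4 of 16 had one, at lgg-2, atg-9, atg-2 (rank 365) and hlh-30 (rank 432), the TFEB gene of the worm, and the first pair were reproducible.

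Chaperone and translation genes were also listed. The heat shock and co-chaperone list had 8 of 28 (28.6%, interval 13.2 to 48.7%). Its highest were hsp-110, the ER chaperone gene hsp-3 (rank 163), the constitutive Hsp70 gene hsp-1 (rank 211) and dnj-8 (rank 611). Translation factors had 5 of 17 (29.4%, interval 10.3 to 56.0%), with eef-1A.2 (rank 196), eif-3.I (358), eef-2 (997) and iff-1 (1464) the highest and none reproducible. The basic helix-loop-helix list had 3 of 12, at hlh-11 (158), hlh-30 (432) and hif-1 (614), the hypoxia factor gene. Hypodermis markers had 3 of 8, at the junction gene ajm-1 (277), the GATA factor gene elt-1 (574) and nhr-25 (1266). In glycolysis 2 of 11 had one, the GAPDH gene gpd-2 (490) and the hexokinase gene hxk-3 (810), and in the respiratory chain 2 of 14 had one, nuo-4 (521) and cox-5A (526).

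The remaining lists hold counts that are read against the 8.11% over all genes. Cytoplasmic ribosomal proteins had 5 of 45, led by rpl-3 (311), and the proteasome had 2 of 17, rpn-3 and pbs-4 (1098). Nuclear pore and importin genes had 2 of 21, imb-3 and the exportin gene xpo-1 (258). Nuclear hormone receptors had 10 of 103 (9.71%), led by nhr-35 (77), nhr-32 (198), nhr-255 (238) and nhr-48 (310). The vacuolar ATPase had 1 of 10, vha-8 (1130), insulin and TOR signalling had 1 of 11, the AMP kinase gene aak-2 (628), and muscle markers had 1 of 7, the obscurin-like gene unc-89 (403). Aminoacyl-tRNA synthetases had 1 of 20, nars-1 (199), and homeobox genes had 2 of 34, ceh-38 (884) and the Hox gene lin-39 (1398). None was found among 64 collagen genes (upper bound of the interval 5.60%) or 33 mitochondrial ribosomal protein genes (upper bound 10.6%). There was also none among 14 fatty acid synthesis and desaturation genes, 6 intestine markers, 6 neuron markers and 5 germline markers, where the upper bounds were 23.2, 45.9, 45.9 and 52.2%. Many lists hold few genes, so their intervals are wide, and they are not adjusted for the number of lists.

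**Figure D5:**
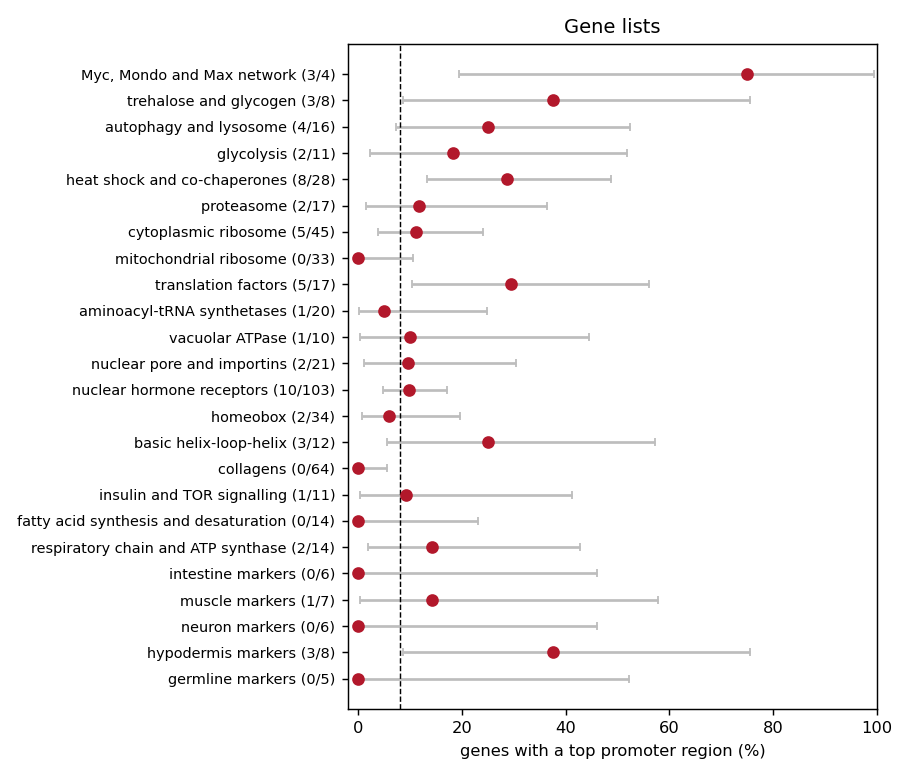
Share of the genes of each list, in percent of those with any pooled promoter region, that had a top promoter region, with exact 95% intervals and counts in brackets. The dashed line is the share of all 7956 genes, 8.11%, and the intervals of most lists cross it. That of the collagens ends at 5.60%. Those of the Myc, Mondo and Max network, heat shock and translation factor lists lie above the line. Those of the trehalose and hypodermis lists start just above it, at 8.52%. The lists were chosen with earlier results of these data known, and the intervals are not adjusted for their number.

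At the rank limit there was no step in signal. The 5 top promoter regions just inside were prp-38, C27D8.4, C26D10.3, ppfr-1 and iff-2, at ranks 1493 to 1500 with signals of 13.78 to 13.77. The 5 just outside were ain-1, dpy-22, K12H6.10, Y102A11A.1 and fce-2, at ranks 1501 to 1509 with signals of 13.77 to 13.75. None of the 10 held CACGTG.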

How the data were processed

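The data are ChIP-seq of a tagged MML-1 in 3 biological replicates. The authors deposited region lists for each replicate and for the pooled replicates, and a list of reproducible peaks, in the ce10 and ce11 builds. The ce11 lists were used. Each region's signal was deposited by the authors on a scale of its own list and served only to rank. The aligner, the peak caller and the thresholds were not given in the sources used here. Since the lists hold no read totals, the depth of each library is unknown, and intervals express counting error over regions. The control library was not analysed here.

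Summits were placed with the WBcel235 assembly and Ensembl release 115, and coordinates are 1-based. A region lying in the windows of several genes was counted for each gene and once as a region. Distances are to the nearest start of any transcript, internal starts included. A planned permutation test of distance is not reported, since position was part of the rule. Motifs were searched on both strands within 100 bp of the summit. Fisher's exact test, two-sided, compared shares, with Clopper-Pearson intervals, and p-values were adjusted after Benjamini and Hochberg over 7 motifs in each of 2 comparisons and over 6 chromosomes. The members and the 24 gene lists were chosen with earlier results of these data known. Of the listed symbols, 7 were not matched in the annotation. Genes named are the 25 highest regions, up to 4 per list, the 8 highest divergent regions, the 8 highest without CACGTG, the 5 on each side of the limit, genes with at least 3 regions and those of the pairs 5 bases apart, which were chosen after their values were seen. The motif step was tested on simulated data. Tests used SciPy 1.17.1 in Python 3.11.15, tables pandas 2.3.3 and numpy 2.4.6, and plots matplotlib 3.10.9. Alternatives varied the rank limit, the windows, the region set and the replicates.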

Additional observations from a re-analysis of the deposited data

How the results depend on the processing

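The CACGTG comparisons did not turn or cross the threshold under any of 13 alternatives for each, with odds ratios between 0.605 and 0.949 against the other top regions and between 3.12 and 23.9 against the lower-ranked promoter regions. The divergent share (odds ratio 1.36) no longer passed in the reproducible list (1.104) or at 40 to 45% GC (1.58, Fisher's exact test, p = 0.0946), and leaving out a replicate gave 0.926 to 1.53, the lowest without replicate 1. Fewer top promoter regions remained in these settings, so a lost call does not show that the shares are equal. The difference in distance (-14 bp, a description) was 7 bp with a window of 500 bp upstream and 100 bp downstream, 34.5 bp at 40 to 45% GC and -18 to 15 bp with a replicate left out. The TCACGTGA odds ratio (3.36) was 1.66 with 1 region per 10 kb cluster, where the share in the top promoter regions stayed at 23.2% and the lower-ranked regions were thinned too. Recovery in all 3 lists (43.5%) was 50% for the first 1000 regions, 39.0% for the first 2000, 88.0% in the reproducible list, 27.1% with matches within 100 bp and 52.7% within 400 bp. Leaving out a replicate keeps the pooled ranks and only those top regions that are high in both others, then asks for the third list, which gave 76.8 to 97.4%. Region set and replicates change together there, with 77 to 112 regions, and the lower-ranked regions stay unfiltered. These settings therefore do not test dependence on a replicate for any of the shares above. The narrower window left 382 of 602 regions. The cause of these changes was not tested.

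Ranks below about the first 200 differ widely between replicates, depth is unknown, and tests over regions leave out the variation among animals. The labels give replicate 3 another source and fragmentation than replicates 1 and 2, which cannot be told apart in these data.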
